A study of Homo sapiens with 6 samples.

Results

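The genes examined here are 9 of the count table: the complement genes C3, CFB, CFI, C1R, C1S, CD46, CD55 and CD59, and C1QTNF1. They were taken by gene symbol from 57773 genes, and each symbol had exactly 1 row. C1R and C1S lie on chromosome 12, CD46 and CD55 on chromosome 1, and the others on chromosomes 19 (C3), 6 (CFB), 4 (CFI), 11 (CD59) and 17 (C1QTNF1). The tumours were grown under the skin of nude mice, which lack a thymus but keep macrophages and other innate cells, from PATU, a human pancreatic ductal adenocarcinoma line. The cells of all 6 tumours held an inducible shRNA that targets ME3, which encodes a mitochondrial malic enzyme. The 2 on-dox tumours received doxycycline to induce the hairpin, and the 4 off-dox tumours did not. No tumour carried a control hairpin, so doxycycline, hairpin induction and lower ME3 cannot be told apart. No source used here gives the age of the mice, the dose or duration of doxycycline, or the number of mice.

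Complement is a cascade of plasma and tissue proteins in which cleavage of C3 marks surfaces for uptake and lysis. The classical branch starts when the proteases C1r and C1s, bound to C1q, are activated. The alternative branch amplifies through factor B. Host cells protect themselves with membrane proteins: CD46 is a cofactor for the cleavage of deposited C3 fragments by factor I, CD55 dissociates the convertases, and CD59 blocks the final pore. The liver makes most plasma complement, but epithelial tumour cells and stromal cells also transcribe several components, and C3 and CFB are known to respond to inflammatory cytokines and interferon. C1QTNF1 encodes a secreted protein with a C1q-like domain and is not a complement component.

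Total counts were 24529707 and 25731887 in the on-dox tumours and 23855338 to 26885699 in the off-dox tumours. ME3 itself was at 33.3 and 28.5 CPM (each count scaled to a common library size with TMM factors) on dox and at 44.2, 44.1, 38.6 and 37.9 CPM off dox. Both on-dox tumours lay below every off-dox tumour, but the log2 fold change of -0.41 did not pass (edgeR adjusted p = 0.148). On-dox tumour 1 stood apart: mRNAs of the mitochondrial genome took 0.529% of its counts, against 0.260% in on-dox tumour 2 and 0.222% to 0.276% off dox. MALAT1 and NEAT1, both nuclear RNAs, took 4.08% there, 1.77% in on-dox tumour 2 and 1.48% to 2.33% off dox. Of 9 epithelial markers, KRT19 had 1 count over all 6 tumours, and the other 8 were counted in every tumour. Their summed CPM was 1132 and 1298 on dox and 1449, 1623, 1385 and 1411 off dox, so both on-dox tumours lay below every off-dox tumour. Single markers differed in direction: of the 8 tested, 5 had a log2 fold change above 0 and 3 below. Among these, edgeR called 0 (3 at an unadjusted p under 0.05, 0 with DESeq2 or limma voom). The labels name separate tumours of 1 cell line, and no source says how many animals bore them, so p-values reflect only the spread among these tumours.

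Of the 9 genes, C1QTNF1 was higher on dox and 7 did not pass the test, and CFI was too low to be tested. The call was made on p-values adjusted over all 21308 tested genes by edgeR's quasi-likelihood test, with a threshold of 0.05. Over all tested genes 1.06% were called in either direction, 0.465% as higher and 0.591% as lower on dox. Among the members, 1 of 8 tested was called, as higher. That gene, C1QTNF1, is not a complement component, and the 7 tested complement genes of the list did not pass. All 8 had a log2 fold change above 0, with a median of 0.24, beside a median of -0.003 over all tested genes, of which 49.6% lay above 0. For C1R and CD59 that sign turned when 1 tumour was left out. In CFB, CD46 and C1QTNF1 both on-dox tumours lay above every off-dox tumour, 3 of 8, against 11.5% of all tested genes (23% in either direction).

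**Figure D1:**
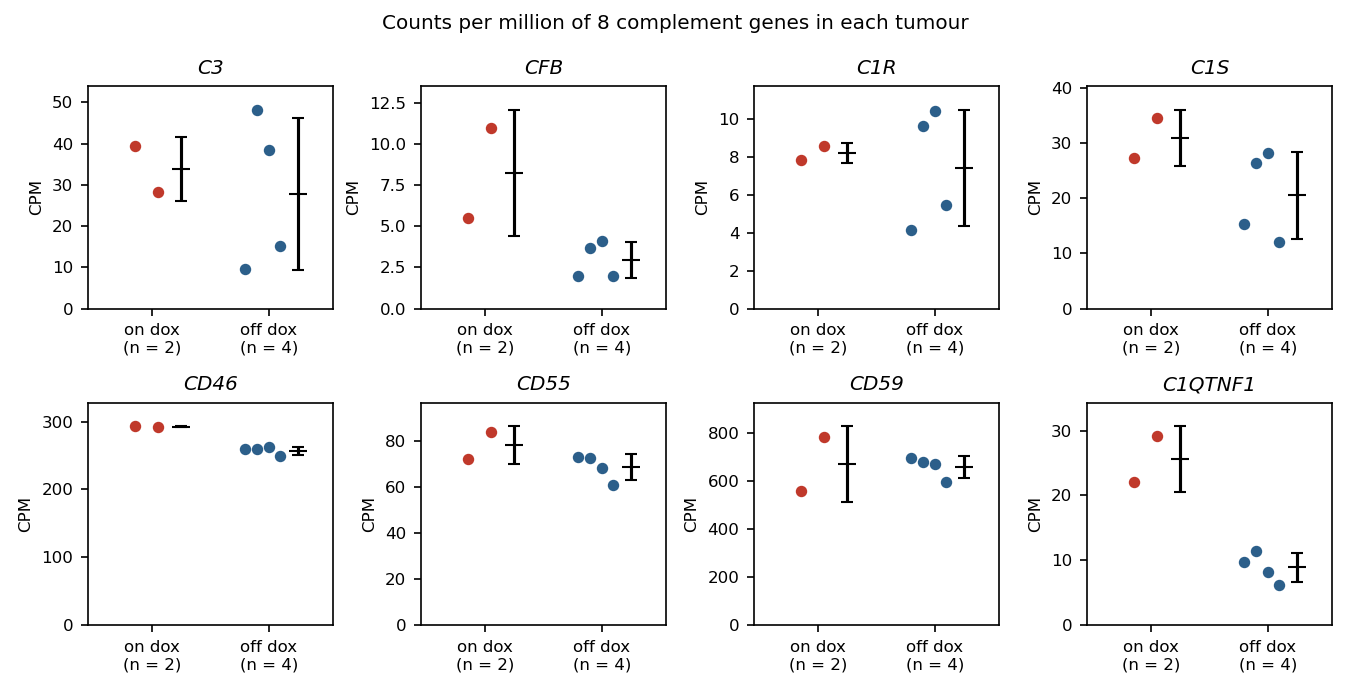
Each panel plots the CPM of 1 gene in the 2 on-dox tumours (red, left) and the 4 off-dox tumours (blue, right), with the mean and SD beside the points in black. The groups do not overlap in CFB, CD46 and C1QTNF1, and the off-dox tumours of C3, CFB, C1R and C1S fall into a higher and a lower pair.

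On-dox tumour 1, the tumour with the higher mitochondrial share, was the lower of the on-dox pair in CFB, C1R, C1S, CD55, CD59 and C1QTNF1. It was the higher in C3 (39.4 against 28.3 CPM) and, by little, in CD46 (293.0 against 292.5 CPM). The share of all tested genes lower in this tumour was not counted. The part of RNA quality in this was not tested.

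C3 (ENSG00000125730), the central protein of the cascade, differed more between off-dox tumours than between the groups. It was at 39.4 and 28.3 CPM in on-dox tumours 1 and 2, against 9.62, 48.2, 38.5 and 15.1 CPM in off-dox tumours 1 to 4. Off-dox tumours 2 and 3 were high, 1 and 4 were low, and the on-dox values lay inside this range. The highest off-dox tumour had 5.01 times the CPM of the lowest. The means were 33.8 ± 7.86 CPM on dox and 27.8 ± 18.4 CPM off dox (SD, n = 2 and n = 4). The log2 fold change was 0.28, with a 95% interval from -0.81 to 1.38 (edgeR adjusted p = 0.851). A change of either sign was not detectable at this spread. In bulk tumours, fewer cells of a type and less RNA per cell cannot be told apart.

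CFB (ENSG00000243649) encodes factor B, the serine protease that joins C3b in the alternative pathway convertase. Its level was 5.50 and 10.9 CPM in on-dox tumours 1 and 2, against 2.00, 3.69, 4.07 and 1.98 CPM in off-dox tumours 1 to 4. Both on-dox tumours were above all off-dox tumours, but they differed 1.99-fold from each other, with tumour 1 the lower. Counts were 142 and 270 on dox and 52 to 99 off dox. The mean was 8.22 ± 3.84 CPM on dox and 2.94 ± 1.10 CPM off dox (SD, n = 2 and n = 4), a fitted fold of 2.80 and a log2 fold change of 1.48 (SE 0.36, 95% interval 0.70 to 2.27). This did not pass over all genes (edgeR adjusted p = 0.0847). An exact permutation test, two-sided over 15 ways to draw 2 of the 6 tumours, gave 0.0667, the smallest p that this design allows. DESeq2 gave an adjusted p of 0.00135 for the same difference, and the adjusted p ran from 0.00126 to 0.251 over 14 alternatives. Leaving out on-dox tumour 1 gave a log2 fold change of 1.90, and leaving out on-dox tumour 2 gave 0.90. In GENCODE release 29 a read-through transcript of C2 and CFB overlaps the gene. Its row in the table was 0 in all 6 tumours, and no source used here says how shared reads were treated.

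The promoter of CFB is shown because, of the 6 members with a RefSeq promoter window, it was the 1 that held both interferon-type motifs searched. Windows run from 250 bases before to 50 after the gene start (RefSeq, GRCh38.p14), and 9 members were looked up. The motifs were GAAANNGAA, the core of the interferon-stimulated response element, TTCNNNGAA, the STAT-binding gamma-activated site, and the kappaB consensus by name, on both strands. Capitals mark matches to the first and second motifs. In CFB the response element match begins 139 bases before the start, on the reverse strand, and the STAT site match 92 bases before it.
CFB chr6:31945845-31946144 plus strand: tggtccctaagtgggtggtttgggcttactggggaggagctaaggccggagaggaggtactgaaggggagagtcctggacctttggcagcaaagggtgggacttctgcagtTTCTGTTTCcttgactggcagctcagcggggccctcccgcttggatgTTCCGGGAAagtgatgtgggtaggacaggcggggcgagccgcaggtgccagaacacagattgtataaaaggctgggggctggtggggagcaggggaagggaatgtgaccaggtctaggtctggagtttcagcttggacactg

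Of all 35116 windows, 8.11% held the response element core, 7.66% the STAT site, 5.91% the kappaB consensus and 0.948% both of the first and second motifs. CD59 and C1R each had a STAT site match in at least 1 of their windows, CD46, CD55 and CFI had no match to either interferon-type motif, and none of the 6 matched kappaB. A match is a string of letters and was not tested as a site. The counts are on another build, hg19 per the submitters' processing notes, and no coordinate of one was carried to the other.

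The genes whose profile over the 6 tumours was closest to that of CFB were APOL3, BST2 and IFI27, among 13602 genes whose log2 CPM averaged at least 1. Closeness is the root mean square difference of log2 CPM after centring each gene, and it was 0.139, 0.196 and 0.199. The nearest member of the 9, C1QTNF1, was at 0.399. BST2, which encodes the interferon-induced antiviral protein tetherin, was at 29.1 and 52.3 CPM on dox and 9.04, 17.8, 19.8 and 13.6 CPM off dox (edgeR adjusted p = 0.0438). APOL3, an apolipoprotein L gene, was at 5.27 and 11.4 CPM on dox and 1.73 to 3.91 CPM off dox (edgeR adjusted p = 0.0639). As in CFB, on-dox tumour 2 was the highest of the 6 in both genes, and off-dox tumours 1 and 4 were below 2 and 3. IFI27, an interferon-inducible gene, was at 254 and 446 CPM on dox and 80.4, 193, 175 and 118 CPM off dox (edgeR adjusted p = 0.0717). Since these genes were picked for this likeness, it is a description over 6 tumours with no test. APOL3 had no RefSeq promoter window. The stretches of the BST2 and IFI27 windows that hold the same motifs are shown for comparison with CFB. In each, a STAT site match overlaps a response element match. The BST2 window also held a kappaB match, outside the stretch shown, and the IFI27 windows held none.
BST2 chr19:17405670-17405776 minus strand: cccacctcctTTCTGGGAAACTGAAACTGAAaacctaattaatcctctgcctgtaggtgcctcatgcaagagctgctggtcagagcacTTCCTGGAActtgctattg
IFI27 chr14:94110619-94110659 plus strand: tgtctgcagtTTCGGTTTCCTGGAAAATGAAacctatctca

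**Figure D2:**
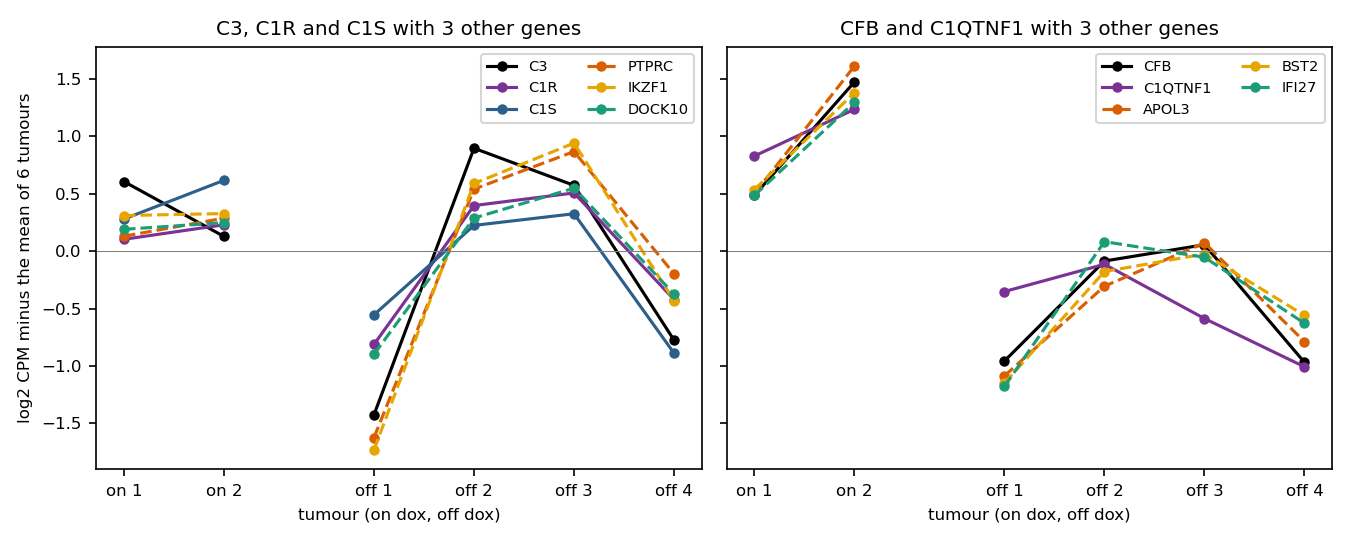
Each point is the log2 CPM of a gene in 1 tumour minus its mean over the 6, with on-dox tumours left of off-dox tumours; lines only join points of 1 gene. On the left, C3, C1R and C1S (solid) with PTPRC, IKZF1 and DOCK10 (dashed) are lowest in off-dox tumours 1 and 4; on the right, CFB and C1QTNF1 (solid) with APOL3, BST2 and IFI27 (dashed) are highest in both on-dox tumours.

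C1R (ENSG00000159403) and C1S (ENSG00000182326) encode the paired proteases of the C1 complex. C1R was at 7.86 and 8.59 CPM on dox, against 4.15, 9.65, 10.4 and 5.46 CPM off dox. The on-dox values lay between the lower off-dox pair, tumours 1 and 4, and the higher pair, tumours 2 and 3. Its log2 fold change was 0.15 (95% interval -0.57 to 0.88, edgeR adjusted p = 0.885), and -0.04 without off-dox tumour 1. C1S was at 27.4 and 34.6 CPM on dox, against 15.4, 26.4, 28.3 and 12.2 CPM off dox. On-dox tumour 2 was the highest of all and on-dox tumour 1 lay below off-dox tumour 3, so the groups overlapped. The log2 fold change of C1S was 0.59 (95% interval -0.04 to 1.23, edgeR adjusted p = 0.385). The CPM of C1S was 3.48 and 4.03 times that of C1R on dox and 3.69, 2.73, 2.72 and 2.23 times off dox, not adjusted for length. C1R overlaps its paralogue C1RL in the annotation, so shared reads could be split or dropped.

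C3, CFB, C1R and C1S thus divided the off-dox tumours the same way, with tumours 2 and 3 above 1 and 4. This is a description with no test, and the share of all tested genes that divide this way was not counted. The genes closest in profile to C3 were MSNP1, a pseudogene whose counts are uncertain beside its parent gene, IKZF1, a lymphoid transcription factor gene, and ELMO1, a regulator of phagocytosis (0.293, 0.307 and 0.336). Those closest to C1R were DOCK10, ENSG00000273488 and PTK2B (0.0721, 0.119 and 0.135). DOCK10 is a guanine nucleotide exchange factor gene and PTK2B a cytoplasmic tyrosine kinase gene, while ENSG00000273488 had no symbol in the sources used here. Among members the nearest to C1R was C1S (0.296). The summed CPM of 13 myeloid markers, which include the complement genes ITGB2, C1QA, C1QB and C1QC, was 39.6 and 45.3 CPM on dox and 30.3, 47.4, 52.0 and 35.7 CPM in off-dox tumours 1 to 4, with tumours 2 and 3 again the higher pair. PTPRC, the leukocyte marker CD45 and chosen here after its values were seen, was at 9.30 and 10.4 CPM on dox and at 2.73, 12.4, 15.5 and 7.40 CPM off dox. Among the other tested myeloid markers, CSF1R, LYZ and ITGB2 also had off-dox tumours 2 and 3 above 1 and 4. AIF1 and CD14 did not divide this way, since off-dox tumour 2 lay below off-dox tumour 4 in both. C1QA, C1QB and C1QC, the C1q chains made by macrophages, and TYROBP had no counts in any tumour. Of the 13 myeloid markers 6 were tested, and edgeR called 0 (0 at an unadjusted p under 0.05, 0 with DESeq2 or limma voom). Fibroblast markers, 11 genes of which 10 were tested and edgeR called 0 (1 at an unadjusted p under 0.05, 0 with DESeq2 or limma voom), summed to 136 and 327 CPM on dox and to 812, 271, 301 and 151 CPM off dox, highest in off-dox tumour 1 where C3 and C1R were lowest. Skeletal muscle markers summed to 4.11 and 17.9 CPM on dox, to 850 CPM in off-dox tumour 4 and to 2.15 to 86.2 CPM in off-dox tumours 1 to 3. All 9 were tested and edgeR called 0 (7 at an unadjusted p under 0.05, 1 with DESeq2, 0 with limma voom). The part of host reads in these genes was not tested.

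CFI (ENSG00000205403) encodes factor I, the protease that inactivates deposited C3 fragments with CD46 as a cofactor. It had no counts in either on-dox tumour and 1 count in all in the off-dox tumours, in tumour 1. A level up to 3 counts, 0.114 to 0.123 CPM, would be allowed by a count of 0, for counting error only.

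The membrane regulators were the most abundant members and, off dox, the steadiest. CD59 (ENSG00000085063) was at 561 and 783 CPM on dox, against 698, 679, 671 and 595 CPM off dox. The 2 on-dox tumours were the lowest and the highest of the 6. The log2 fold change of CD59 was 0.02 (95% interval -0.28 to 0.33, edgeR adjusted p = 0.958), and -0.24 without on-dox tumour 2. CD46 (ENSG00000117335) was at 293.0 and 292.5 CPM on dox, against 259.1, 259.6, 262.0 and 248.7 CPM off dox. Both on-dox tumours were higher than all off-dox tumours, by a small step: the fitted fold was 1.14, the log2 fold change 0.19 (SE 0.09, 95% interval -0.01 to 0.38). It did not pass over all genes (edgeR adjusted p = 0.367), and the exact permutation test gave 0.0667. CD55 (ENSG00000196352) was at 72.2 and 83.9 CPM on dox, against 72.9, 72.5, 68.1 and 60.7 CPM off dox. On-dox tumour 2 was the highest, while on-dox tumour 1 lay among the off-dox tumours. The log2 fold change of CD55 was 0.19 (95% interval -0.05 to 0.43, edgeR adjusted p = 0.473). No interval of these 3 genes reached beyond 0.43 on the log2 scale. Their summed CPM was 926 and 1159 on dox and 1030, 1011, 1001 and 904 off dox, with on-dox tumour 1 inside the off-dox range and on-dox tumour 2 above it.

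Off dox the coefficient of variation between tumours was 2.29% for CD46, 6.86% for CD59 and 8.29% for CD55, against 66.2% for C3, 41.5% for C1R, 38.8% for C1S, 37.5% for CFB and 25.3% for C1QTNF1. The genes closest in profile to CD55 were TMC6, C2orf76 and ZNF805 (0.0147, 0.0177 and 0.0282). Among members the nearest to CD55 was CD46 (0.093).

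Levels between genes were compared per kilobase of the longest coding transcript in GENCODE release 29. CD59, at 88.0 ± 20.6 CPM per kilobase on dox and 86.6 ± 5.94 off dox, and CD46, at 86.8 ± 0.0965 on dox and 76.3 ± 1.75 off dox (SD, n = 2 and n = 4), stood at the top. Their values overlapped on dox, where CD59 lay on both sides of CD46. CD55 followed at 27.0 ± 2.85 on dox and 23.7 ± 1.97 off dox. C1S was at 10.1 ± 1.66 and 6.68 ± 2.59, and C3 at 6.43 ± 1.49 and 5.29 ± 3.51 CPM per kilobase on and off dox. C1S and C3 lay within each other's spread off dox, while on dox the mean of C1S was higher by more than either SD. C1QTNF1 was at 8.25 ± 1.63 on dox and 2.86 ± 0.724 off dox, and C1R at 3.09 ± 0.193 on dox and 2.79 ± 1.16 off dox. These 2 did not differ beyond their spread off dox, and neither did C3 and C1QTNF1, while on dox C1QTNF1 was above C1R in both tumours. CFB was the lowest at 2.87 ± 1.34 on dox and 1.03 ± 0.385 off dox, with its on-dox values on both sides of those of C1R. With merged exon length in place of transcript length, C3 and C1S changed places off dox. On dox CD59, at 64.9 ± 15.2, then stood above CD46, at 33.6 ± 0.0374, by more than either SD. C1S and C3, at 4.80 ± 0.789 and 4.06 ± 0.944 on dox, then lay within each other's spread. The order of these genes on dox thus depended on the length used.

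**Figure D3:**
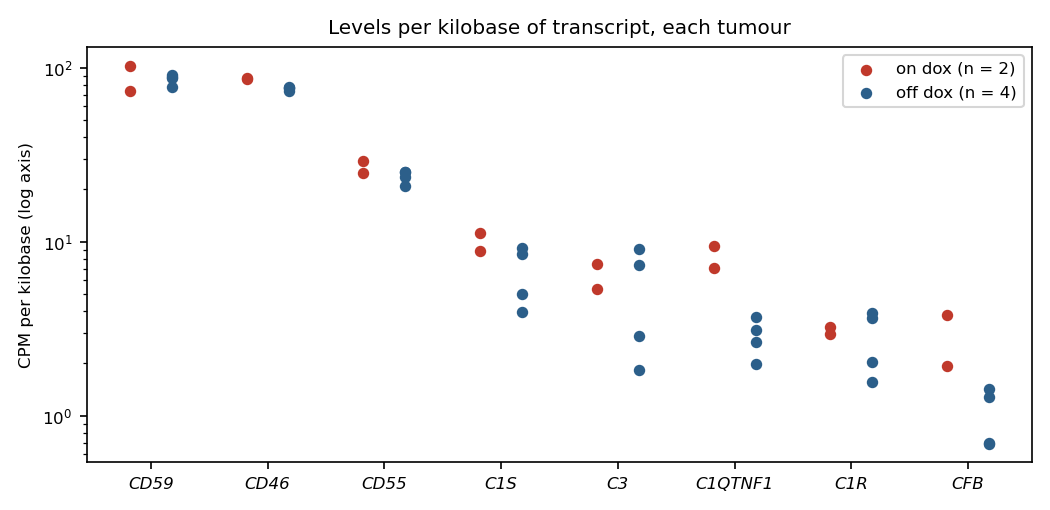
Points are single tumours, on dox in red at the left of each gene and off dox in blue at the right, in CPM per kilobase of transcript on a log axis. The 3 membrane regulators lie above the 5 other genes in all tumours.

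C1QTNF1 (ENSG00000173918) rose on dox. It belongs to the C1q and TNF related family of secreted proteins, several of which act as hormones on metabolism and vessels. It was at 22.0 and 29.2 CPM in on-dox tumours 1 and 2, against 9.69, 11.4, 8.23 and 6.14 CPM in off-dox tumours 1 to 4. The lowest on-dox tumour was above the highest off-dox tumour. The mean was 25.6 ± 5.07 CPM on dox and 8.88 ± 2.24 CPM off dox (SD, n = 2 and n = 4). The log2 fold change was 1.53 (SE 0.21, 95% interval 1.05 to 2.00, edgeR adjusted p = 0.0136). It stayed called with any 1 tumour left out, with log2 fold changes of 1.31 to 1.72 and adjusted p of 0.0148 to 0.0394. The exact permutation test gave 0.0667. An antisense gene, C1QTNF1-AS1, overlaps it, with 25 and 9 counts on dox and 3, 8, 4 and 2 off dox. No source used here gives the strand setting of the counting, so reads of the pair cannot be told apart.

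The profile of C1QTNF1 was closest to ANO9, an anoctamin gene, CTSS, the lysosomal protease cathepsin S, and ENSG00000161570 (0.194, 0.244 and 0.257). ENSG00000161570 had no symbol in the sources used here, and its mean was 14.0 CPM on dox and 5.34 CPM off dox. ANO9 was at 10.5 and 12.03 CPM on dox and 4.65, 4.58, 4.82 and 3.32 CPM off dox (edgeR adjusted p = 0.0136). CTSS was at 15.8 and 26.7 CPM on dox and 5.92, 7.10, 6.96 and 5.65 CPM off dox (edgeR adjusted p = 0.00637). Of the rest of the family, 8 of 16 listed genes were tested and edgeR called 0 (1 at an unadjusted p under 0.05, 0 with DESeq2 or limma voom), with a median log2 fold change of 0.15. C1QTNF6 had the smallest p among them, at 19.6 and 14.3 CPM on dox and 10.1, 12.3, 15.8 and 12.1 CPM off dox (edgeR adjusted p = 0.347). C1QTNF2, C1QL4 and C1QL3 had log2 fold changes of 0.71, -0.53 and 0.26, with edgeR adjusted p of 0.614, 0.616 and 0.658.

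Of 55 other complement genes listed, 22 were tested, and 1 was called, as higher on dox, which is 4.55% beside 1.06% of all tested genes. Their median log2 fold change was -0.14, with 8 above 0 and 14 below. The gene called was C4BPB, which encodes the beta chain of C4b-binding protein, a soluble inhibitor of the classical convertase. It was at 50.8 and 55.9 CPM on dox, against 28.7, 37.6, 29.8 and 26.1 CPM off dox. Both on-dox tumours were above all off-dox tumours, with a log2 fold change of 0.80 (SE 0.14, edgeR adjusted p = 0.0322). The call was lost without any 1 tumour other than off-dox tumour 2, where the adjusted p lay between 0.0518 and 0.0861 and the log2 fold change between 0.73 and 0.87. C4BPA, the alpha chain gene that makes up most of the plasma protein, had 1 count over the 6 tumours. Like CFB, C4BPB had a match to both interferon-type motifs, in 2 of its 3 RefSeq windows. These 2 windows overlap and hold the same pair of matches, and in 1 of them the STAT site match begins after the start.

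**Figure D4:**
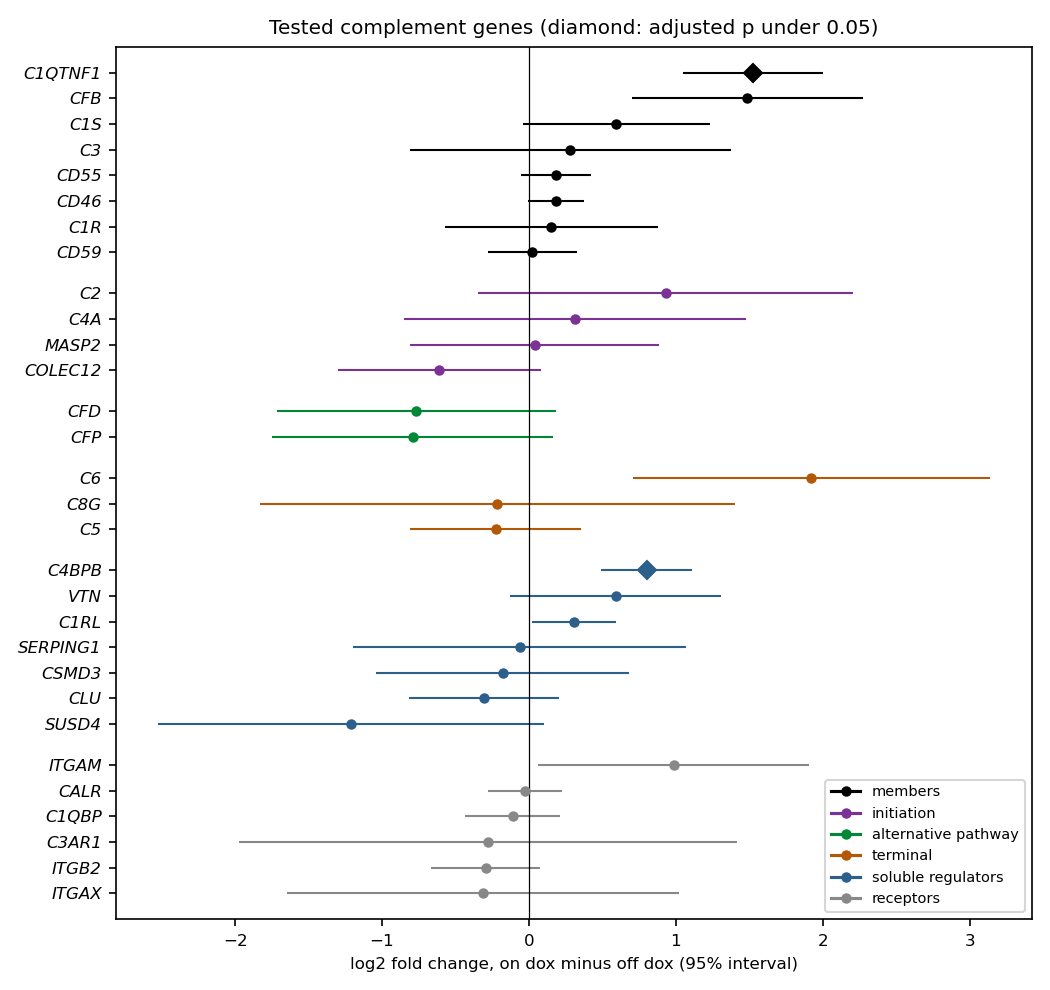
Points are the log2 fold changes, on dox minus off dox, of the 8 tested members and of 22 tested complement genes outside the members by role, with 95% intervals. Diamonds mark C1QTNF1 and C4BPB, the genes called at an adjusted p under 0.05; the intervals of CFB, C6, C1RL and ITGAM also lie above 0, but none of these 4 passed adjustment over all genes.

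Among genes of initiation, 4 of 15 were tested and edgeR called 0 (0 at an unadjusted p under 0.05, 0 with DESeq2 or limma voom). COLEC12, a scavenger-type collectin, was at 1.55 and 2.67 CPM on dox and 2.68 to 4.16 CPM off dox (edgeR adjusted p = 0.415). C2, the classical counterpart of CFB, was at 0.93 and 0.36 CPM on dox and 0.23 to 0.53 CPM off dox (edgeR adjusted p = 0.51). C4A and MASP2 had log2 fold changes of 0.31 and 0.04, and C4A is nearly identical to C4B, so its counts are uncertain. The alternative pathway genes CFD, factor D, and CFP, properdin, were low in all tumours, had on-dox values below every off-dox value and did not pass, with log2 fold changes of -0.77 and -0.79 (edgeR adjusted p = 0.461 and 0.449). Of all tested genes, 11.5% likewise had both on-dox values below every off-dox value. Counts on dox were 17 and 18 for CFD and 13 and 14 for CFP. CFD was at 0.66 and 0.73 CPM on dox and 0.80 to 1.85 CPM off dox, and CFP at 0.50 and 0.57 CPM on dox and 0.65 to 1.19 CPM off dox.

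Of the terminal components, 3 of 7 were tested and edgeR called 0 (1 at an unadjusted p under 0.05, 0 with DESeq2 or limma voom). C6, a component of the pore, was at 0.66 and 0.57 CPM on dox and 0.12, 0.12, 0.16 and 0.23 CPM off dox, 47 counts over the 6 tumours (log2 fold change 1.92, edgeR adjusted p = 0.141). C5 was at -0.23 and C8G at -0.22 on the log2 fold change scale. C8A and C8B had no counts. Of 18 soluble regulators 7 were tested, C4BPB being the 1 called. C1RL, a relative of C1R, was at 26.4 and 23.7 CPM on dox and 19.5, 20.4, 22.9 and 18.1 CPM off dox (log2 fold change 0.31, edgeR adjusted p = 0.312). SUSD4, VTN, which encodes vitronectin, and CLU, which encodes clusterin, had log2 fold changes of -1.21, 0.59 and -0.30 (edgeR adjusted p = 0.392, 0.451 and 0.6). Of the receptors, 6 of 13 were tested and edgeR called 0 (1 at an unadjusted p under 0.05, 0 with DESeq2 or limma voom). ITGAM, the alpha chain of complement receptor 3, was at 2.29 and 3.89 CPM on dox and 1.42, 1.62, 2.47 and 0.72 CPM off dox (edgeR adjusted p = 0.319), while its partner ITGB2 had a log2 fold change of -0.30.

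Genes of cytokines and transcription factors known to act on C3 or CFB were set beside the members. Of 14 tested among 16 listed, edgeR called 2, both higher on dox, beside 1.06% of all tested genes called, and DESeq2 called 4. The median log2 fold change was 0.25. TNF was at 7.90 and 17.6 CPM on dox and 2.08, 2.60, 2.26 and 3.85 CPM off dox (edgeR adjusted p = 0.0136), and stayed called when on-dox tumour 2 was left out (log2 fold change 1.54) or on-dox tumour 1 (2.70), against 2.24 with all 6. IRF1 was at 80.2 and 93.8 CPM on dox and 56.7, 63.7, 59.6 and 57.0 CPM off dox (edgeR adjusted p = 0.0329). The IRF1 call was lost without on-dox tumour 2 or any 1 off-dox tumour, with adjusted p from 0.0611 to 0.0849. In both genes, as in CFB and C1QTNF1, on-dox tumour 2 was the higher of its pair. IL1A, STAT3 and NFKB2 had log2 fold changes of 0.85, 0.29 and 0.27 and CEBPB of -0.70 (edgeR adjusted p = 0.0913, 0.222, 0.222 and 0.0641). The groups did not overlap in 8 of the 14 tested genes, 7 higher and 1 lower on dox, beside 23% of all tested genes. Since the list was chosen with earlier results of these data known, these shares are a description with no test.

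Of 16 acute-phase genes, 8 were tested and edgeR called 1, beside 1.06% of all tested genes, with 3 at an unadjusted p under 0.05 and 2 called by DESeq2. The gene called by edgeR was PTX3, the long pentraxin that binds C1q. It was at 182 and 221 CPM on dox, against 94.1, 105.2, 89.6 and 90.9 CPM off dox, a log2 fold change of 1.09 (SE 0.11, edgeR adjusted p = 0.00274). SAA1 and SAA2, the serum amyloid genes, were at 1.02 and 1.21 on the log2 fold change scale (edgeR adjusted p = 0.149 and 0.211). They are close paralogues, so their counts are uncertain. SAA1 was at 44.0 and 69.7 CPM on dox and 16.5, 43.7, 24.9 and 27.1 CPM off dox, so that off-dox tumour 2 lay just under on-dox tumour 1. HP and HPX, which encode haptoglobin and hemopexin, had log2 fold changes of 0.77 and -0.65 (edgeR adjusted p = 0.598 and 0.622).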

How the data were processed

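RNA of 6 xenograft tumours was sequenced, and the authors deposited whole-number counts per gene. The submitters' processing notes name STAR, HTSeq, limma and build hg19. Their settings, the annotation and the treatment of mouse reads were not given in the sources used here. After 25 repeated identifiers were removed, 57773 genes remained. Groups came from the sample labels. All genes were fitted together with edgeR 4.0.16 in R 4.3.3 (TMM factors, default low-count filter, quasi-likelihood test, Benjamini-Hochberg adjustment over 21308 tested genes), comparing 2 on-dox with 4 off-dox tumours. CPM uses TMM-scaled library sizes, and SD is over tumours. Totals were 23855338 to 26885699 counts per tumour, and the biological coefficient of variation was 18.8%. Tested on simulated data of this comparison, 20642 genes, the fit recovered 10.4% of 1.5-fold, 71.6% of 2-fold and 100% of 4-fold changes, and 10 of 131 calls were false.

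The members and gene lists were chosen with earlier results of these data known. The text names all members, each called gene of a list described and up to 4 more with the smallest p, and the 3 genes nearest in profile to C3, CFB, C1R, CD55 and C1QTNF1. Alternatives were other scalings (DESeq2 size factors, upper quartile), filters and a threshold of 0.1, a robust fit, DESeq2 1.42.0, limma 3.58.1 voom, a replicate block and leaving out each tumour. RefSeq and GENCODE tables gave promoter windows, names and lengths.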

Additional observations from a re-analysis of the deposited data

Results flagged for a closer look

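Of 83 values examined over the 4 off-dox tumours, 2 had 1 tumour far from the others, and chance alone flags about 1 in 20. ANO9, the gene nearest in profile to C1QTNF1, was at 10.5 and 12.03 CPM on dox and at 3.319 CPM in off-dox tumour 4, against 4.582 to 4.816 CPM in off-dox tumours 1 to 3. The summed skeletal muscle markers were at 4.11 and 17.9 CPM on dox and at 850.3 CPM in off-dox tumour 4, with 2.154 to 86.16 CPM in off-dox tumours 1 to 3. Off-dox tumour 4 was also the lowest off-dox tumour for C1QTNF1, CFB, C1S, CD46, CD55 and CD59.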

How the results depend on the processing

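The count of genes called over the whole table, 225, was 770 with no low-count filter, 724 with DESeq2, 533 at an adjusted p under 0.1, 53 with the replicate block, 72 if on-dox tumour 1 was dropped and 562 if the second was, while dropping an off-dox tumour gave 96, 80, 83 and 133 in the order of their numbers. The count of members called, 1, was 2 with no low-count filter, with DESeq2 and at an adjusted p under 0.1, where CFB was added, and 0 with the replicate block by edgeR (3 at an unadjusted p under 0.05), where C1QTNF1 had a log2 fold change of 1.27 and an adjusted p of 0.0519 (5.99e-09 to 0.0519 over 14 alternatives). The count of other complement genes called, 1, was 0 with the replicate block by edgeR (5 at an unadjusted p under 0.05) and 0 to 1 with 1 tumour left out. With the block the calls of C4BPB, PTX3 and IRF1 were also lost (adjusted p = 0.245, 0.0548 and 0.399). Replicate numbers are shared by 2 pairs, whose deviations correlated at -0.0319 and 0.00631 over genes. With 2 on-dox tumours, their deviations from their own mean are equal and opposite, so this check cannot exclude a pairing. The labels state no pairing, and the block was not used in the main fit.

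Signs turned, without any call, for C1R (-0.0446 without off-dox tumour 1, otherwise up to 0.358 with 1 tumour left out) and CD59 (-0.0547 with the block, -0.241 without on-dox tumour 2, -0.0226 without off-dox tumour 4, otherwise up to 0.247 without on-dox tumour 1). For C3 the log2 fold change was 0.000521 to 0.684 over 14 alternatives, for C1S 0.411 to 0.787, for CD46 0.17 to 0.199 and for CD55 0.071 to 0.293, none called. The median log2 fold change of all genes was -0.00312, and -0.00189 and 0.0103 with the other scalings. Merged exon length, an alternative chosen after seeing the data, lowered each off-dox mean per kilobase by its construction, to 63.8 for CD59, 29.6 for CD46, 11.6 for CD55, 3.18 for C1S, 1.83 for C1QTNF1, 1.26 for C1R and 0.588 for CFB. The cause of the other differences was not tested. With 2 on-dox tumours, changes of 1.5-fold were mostly missed in the simulation.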
